A study of Arabidopsis thaliana with 14 samples.

Results

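The genes described here are 51 nuclear genes of Arabidopsis thaliana that encode light-harvesting proteins, photosystem subunits, electron carriers and the small subunit of Rubisco. They were taken from a list of loci, and all 51 were among the 25414 named genes of the deposited table. The set holds 9 genes of the major antenna of photosystem II (major LHCII), 6 of the minor antenna, 6 of the photosystem I antenna (LHCA), 12 photosystem I subunits, 10 photosystem II subunits, 4 electron carriers and 4 Rubisco small subunit genes. RNA-seq had been run on whole embryos of ecotype Col-0 at 7 stages: zygote, octant, globular, heart, torpedo, bent and mature. Each stage had 2 libraries, labelled biological replicates, without a treatment or mutant. Nothing in the labels says that same-numbered replicates of different stages belong together, and p-values measure the spread between these libraries.

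Light-harvesting proteins bind chlorophyll and pass excitation to the reaction centres of photosystem II and photosystem I. Electrons from water pass through photosystem II, the cytochrome b6f complex, plastocyanin and photosystem I to ferredoxin, and the energy gained feeds carbon fixation by Rubisco. In Arabidopsis the embryo itself forms chloroplasts and turns green while its cotyledons grow, and it loses its chlorophyll as the seed dries. The nuclear genes for these proteins are known in seedlings as targets of light signals and of the GLK transcription factors.

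Values are normalised signals, reads per gene scaled so that every library sums to 20000000. The libraries held 6078186 to 30803336 reads, so that 1 read was worth 0.649 to 3.29 units. A count of 0 therefore allowed a level of up to 1.95 to 9.87 units (3 reads, counting error only). In bulk libraries fewer cells of a type and less RNA per cell cannot be told apart, and every value is a share of its library. Of 11 embryo markers 10 were in the table, with their summed level between 0.00740% and 0.199% of a library. LEC1, a regulator of embryo identity, stood at 30064 and 21555 at zygote and at 0 and 10.8 at mature. Of 9 seed coat markers 4 were in the table. They summed to 0.0217% and 0.0139% of the zygote libraries, 0.0753% and 0.0796% of the octant libraries, and 0.00194% or less of every later library. BAN, the defining gene of the seed coat endothelium, was at 3369 and 1659 at zygote and 12878 and 13519.5 at octant. The part of seed coat RNA in the zygote and octant values below was not tested. Seed maturation markers, 8 genes, made up 9.77% and 12.6% of the bent libraries and 7.42% and 7.62% of the mature libraries.

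The 2 mature libraries differed from each other in this set. Of the 51 genes 48 were higher in mature 2 than in mature 1, and 35 were at least 4 times higher on the scale of value + 4, against 2.78% of all 18744 tested genes. In mature 1 there were 9 genes of the set without a read and 20 with 3 reads or fewer. This gap enters the spread shared by all stages in the fit, so counts are also given without the mature stage. The bent libraries differed less, with 47 genes higher in bent 1 at a median ratio of 2.27. On the log2(value + 4) scale the median gap of bent 1 over bent 2 was 1.18 for the set and 0.30 for all tested genes.

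**Figure D1:**
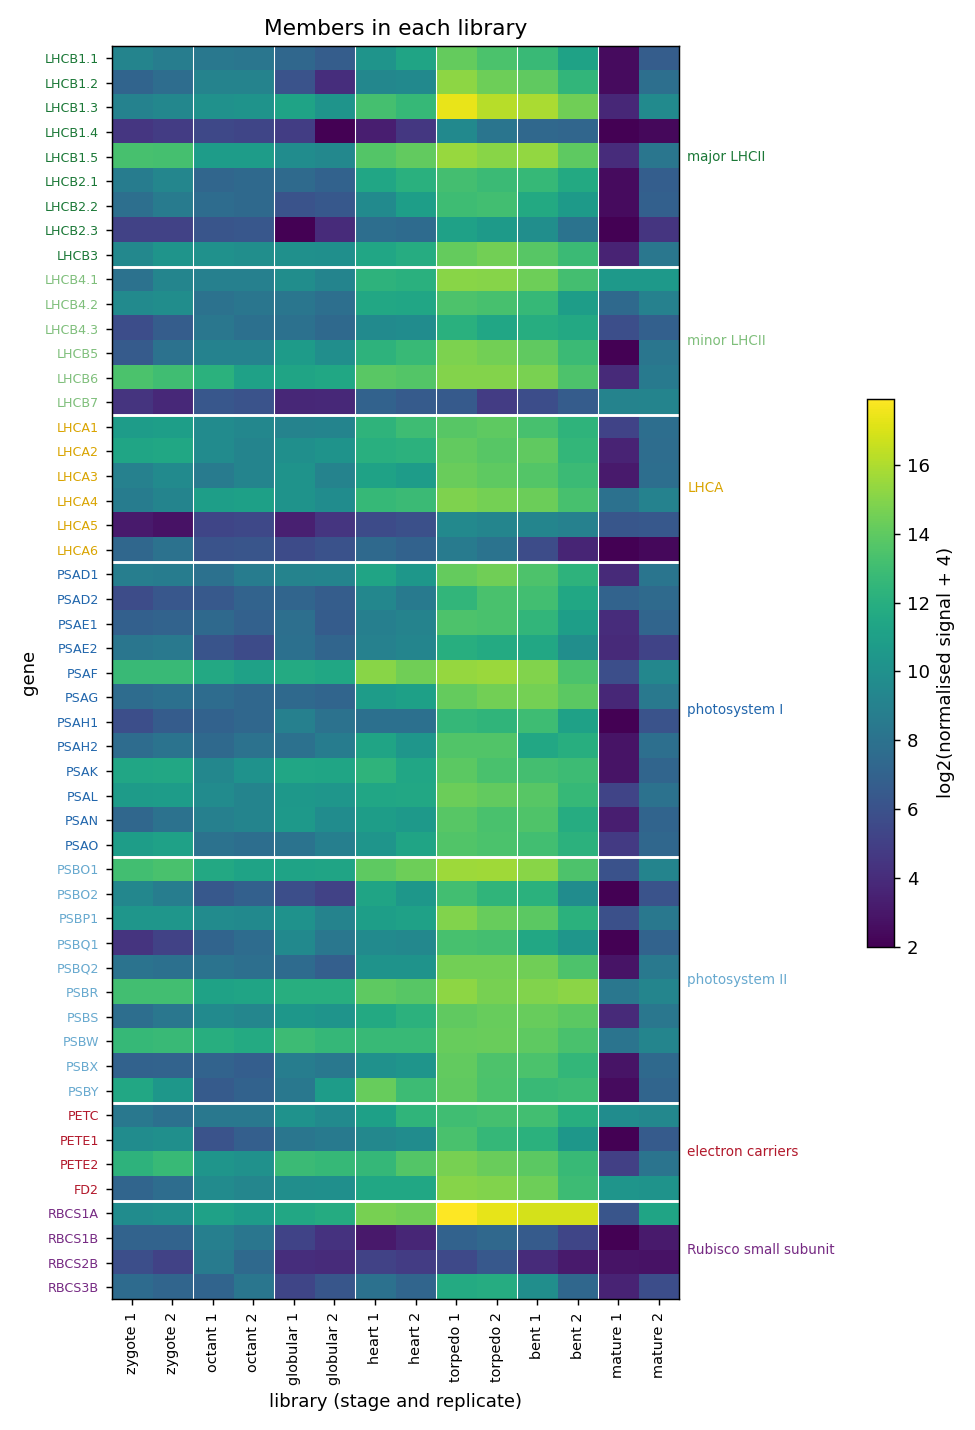
Each row is 1 of the 51 genes and each column 1 of the 14 libraries, with colour giving log2(normalised signal + 4) and row labels coloured by subgroup. The 2 torpedo columns are the brightest for most rows, and mature 1 is darker than mature 2 in 48 of 51 rows.

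Together the 51 genes made up little of the early libraries and most of their signal lay at torpedo. Their summed signal was 0.410% and 0.428% of the zygote libraries, 0.197% and 0.171% at octant, 0.285% and 0.252% at globular, 1.19% and 1.16% at heart, 6.28% and 4.90% of the torpedo libraries, 3.85% and 2.18% of the bent libraries, and 0.0296% and 0.0868% of the mature libraries. The libraries of neighbouring stages did not overlap in this sum. The highest stage mean fell at torpedo for 47 genes, and for 36 of these both torpedo libraries lay above both libraries of the next highest stage. Of all tested genes 26.6% had their highest mean at torpedo, and 14.5% had it there without such overlap. RBCS1B and RBCS2B were highest at octant, PSBR at bent and LHCB7 at mature. The lowest mean was at mature for 37 genes, at zygote for 8 and at globular for 6, against 30.5%, 31.1% and 12.6% of all tested genes. All 51 genes differed among the stages in the F test (limma, adjusted over all genes), as did 97.1% of all tested genes. Without the mature stage all 51 again differed, as did 94.3% of tested genes.

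Before heart the summed signals of the subgroups followed different courses. The major LHCII genes summed to 0.0644% ± 0.00276 of the library at zygote (SD, n = 2), 0.0260% ± 2.31e-05 at octant and 0.0199% ± 0.00562 at globular. They stood at 1.26% ± 0.460 at torpedo. LHCB1.5 alone had a mean of 9787 at zygote, where the subgroup summed to 12876.5 units. Reads of LHCB1.5 cannot be assigned with certainty, as described below. LHCB1.2, LHCB1.3, LHCB1.4, LHCB2.3 and LHCB3 had higher means at octant than at zygote. LHCB1.1, LHCB1.5, LHCB2.1 and LHCB2.2 had lower ones. The Rubisco small subunit genes summed to 0.00620% ± 0.000219 at zygote, below every other subgroup there. At torpedo they stood at 1.05% ± 0.298, next to the photosystem II subunits at 1.07% ± 0.126. RBCS1A alone had a mean of 206933 at torpedo, where the Rubisco genes summed to 210705 units. RBCS1B and RBCS2B had lower means at torpedo than at octant. The photosystem II subunits were the largest subgroup at zygote, 0.150% ± 0.00254, and at globular, 0.0889% ± 0.00411. Electron carriers went from 0.0116% ± 0.00118 at octant to 0.0465% ± 0.00407 at globular, the widest ratio between these stages among the 7 subgroups. Their libraries did not overlap between octant and globular. PETE2 alone had a mean of 7072 at globular, where the carriers summed to 9309 units.

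**Figure D2:**
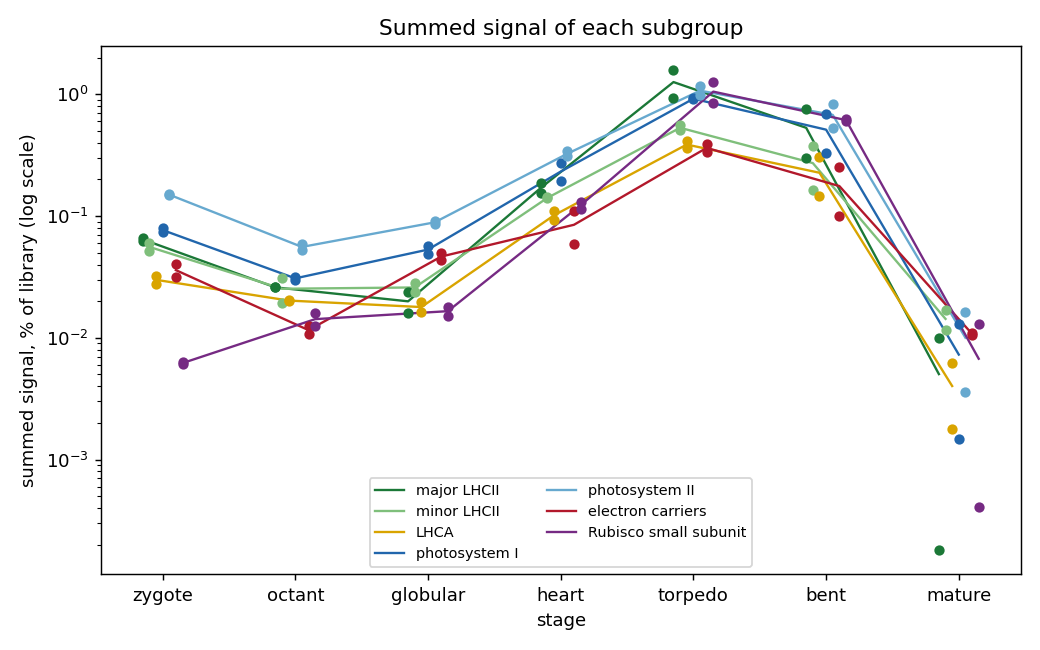
The x axis gives the stage and the y axis, on a log scale, the summed signal of each of the 7 subgroups as a percent of the library, with 1 point per library and lines through stage means. Every subgroup is highest at torpedo, and Rubisco small subunit genes start lowest, at 0.00620% of the zygote libraries.

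Compared per transcript length at torpedo, 2 genes stood above all others. RBCS1A had a mean of 8160 reads per kilobase and per 1000000 reads, and LHCB1.3 had 5154. PSBR followed at 2065, LHCB1.5 at 1916 and PSAF at 1889. The lowest were LHCB7 at 2.33, RBCS2B at 3.31 and RBCS1B at 3.78. Reads were made from amplified RNA, which favours the 3' end of a transcript, and its effect on these per-length levels was not tested.

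From zygote to octant the set moved in both directions. With limma and an adjusted p under 0.05, 8 genes rose and 10 fell, where 44.7% of all tested genes rose and 13.1% fell. The median log2 change on the log2(value + 4) scale was -0.16 for the set and 0.92 for all tested genes. Such changes understate those of low genes. With upper-quartile scaling 6 rose and 17 fell, against 33.1% and 19.5% of tested genes. After centring each library on its median 2 rose and 20 fell, against 21.2% and 29.4%. Without the mature stage 13 rose and 19 fell, against 45.6% and 13.5% of tested genes. The falls numbered 6 without zygote 1, 5 without any 1 of zygote 2, octant 1 and octant 2, and 19 without either mature library. The largest falls were those of PSBY, a small photosystem II subunit (log2 change -4.20 ± 1.07 SE, adjusted p = 0.00371), and PETE1, a plastocyanin (log2 change -3.38 ± 0.97 SE, adjusted p = 0.00782). RBCS2B and LHCA5 were among the genes that rose (log2 change 2.54 ± 0.53 SE, adjusted p = 0.000879 and log2 change 2.42 ± 0.45 SE, adjusted p = 0.000356).

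Transcripts of 14 genes stood at 1000 or more in the zygote. These were LHCB1.5, LHCB6, LHCA1, LHCA2, PSAF, PSAK, PSAL, PSAO, PSBO1, PSBP1, PSBR, PSBW, PSBY and PETE2. Their median went from 4367 at zygote to 1028 at octant and 1901 at globular, then 8223 at heart and 21506.5 at torpedo. The other 37 genes had medians of 209.5 at zygote, 244 at octant and 205 at globular, then 1385 at heart and 10725 at torpedo. The 1000 limit was set on these same values, so the 2 groups are a description. The genes of 1 complex fell on both sides, since PSBO1 was at 1000 or more while PSBO2, PSBQ1 and PSBQ2 were not.

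From octant to globular 3 genes rose and 6 fell, against 7.02% and 31.5% of all tested genes. The median log2 change was 0.19 for the set and -0.63 for all tested genes. With upper-quartile scaling 6 rose and 5 fell, against 10.4% and 22% of tested genes. After median centring 12 rose and 5 fell, against 17.3% and 15.2%. Without the mature stage 8 rose and 10 fell, against 7.54% and 32% of tested genes. The rises numbered 1 without octant 1, 0 without octant 2 and 8 without either mature library, which also gave 10 falls. PETE2, PSAE2 and PETC rose, by 2.58, 1.65 and 1.49 on the log2 scale. The genes that fell were LHCB1.2, RBCS2B, RBCS1B, LHCB2.3, LHCB7 and LHCA5. LHCB2.3 was left with no read in globular 1 and 9 reads in globular 2.

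From globular to heart 26 genes rose and none fell, against 27.7% and 6.9% of all tested genes. The median log2 change was 2.001, against 0.59 over all tested genes. The count was 40 without the mature stage, where none fell and 28.9% of tested genes rose and 7.12% fell, and also 40 without either mature library. It was 16 without heart 2. The count of falls, 0 with limma and 1 at an unadjusted p under 0.05, was 1 after median centring, with upper-quartile scaling, with edgeR and DESeq2 on the recovered reads, and without either bent library. Of all tested genes 17.2%, 10.7%, 11.7% and 14.9% fell under the first 4 of these. RBCS1B was the gene called under these scalings and tools. Of the 9 major LHCII genes 6 rose, of the 6 minor ones 4 and of the 6 LHCA genes 3. The largest changes were those of PSBO2, an oxygen-evolving subunit (log2 change 5.36 ± 0.96 SE, adjusted p = 0.000947), and LHCB2.3, a major LHCII gene (log2 change 4.69 ± 0.76 SE, adjusted p = 0.000474). Of the 12 photosystem I subunits 5 rose, of the 10 photosystem II subunits 5, of the 4 carriers 2 and of the 4 Rubisco genes 1, RBCS1A.

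From heart to torpedo 33 genes rose and none fell, against 16.3% and 9.17% of all tested genes. The median log2 change was 2.73, against 0.19 over all tested genes. Without the mature stage 45 rose and none fell, against 17.2% and 9.69% of tested genes. The count was 17 without heart 1, 18 without heart 2, 15 without torpedo 1, where LHCB7 fell, and 18 without torpedo 2. No fall was found with edgeR or DESeq2, nor at an unadjusted p under 0.05 with limma. The largest rises were those of LHCB1.2 (log2 change 5.36 ± 1.14 SE, adjusted p = 0.00363) and LHCB1.4 (log2 change 4.93 ± 0.76 SE, adjusted p = 0.000365). Over the whole span from globular to torpedo 50 genes rose and none fell, against 40.8% and 11% of all tested genes, with a median log2 change of 4.72 against 0.79. With edgeR 46 rose, where 20.7% of tested genes rose and 20.6% fell, and with DESeq2 44 rose, where 18.9% rose and 22.5% fell. No gene of the set fell with either tool or at an unadjusted p under 0.05. PETE2, the gene not called, had a log2 change of 1.70 (SE 0.72, adjusted p = 0.0595). All 51 rose without the mature stage, against 41.8% of tested genes.

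The subgroups differed in their medians at heart, midway between globular and torpedo. The share of the log2 rise that was present at heart had a median of 46.3% over the 51 genes. It was 55.6% for major LHCII, 57.6% for minor LHCII and 54.2% for LHCA. It was 33.7% for photosystem I subunits, 41.6% for photosystem II subunits, 28.6% for electron carriers and 39.3% for Rubisco. The minor LHCII median includes LHCB7 at 158.8%, a gene lower at torpedo than at heart. The Rubisco median includes RBCS1B at -57.6%. A share of the rise has little meaning for these genes. Apart from LHCB7 the minor LHCII genes lay between 48.3% and 66.5%. Apart from RBCS1B the Rubisco genes lay between 29.7% and 50.4%. The ranges overlapped, from 9.13% to 77.7% within major LHCII and from -13.7% to 81.6% within photosystem I. PSBY had 96.2% of its rise at heart and PSAF 81.6%, while PSBW had none of it and PSAH1 and RBCS1B were lower at heart than at globular. The libraries of PSBY lay far apart, at 332 and 1766 at globular and 18789 and 7777 at heart. Its heart and torpedo libraries overlapped. All members share the same 6 libraries and the subgroup difference was not tested.

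**Figure D3:**
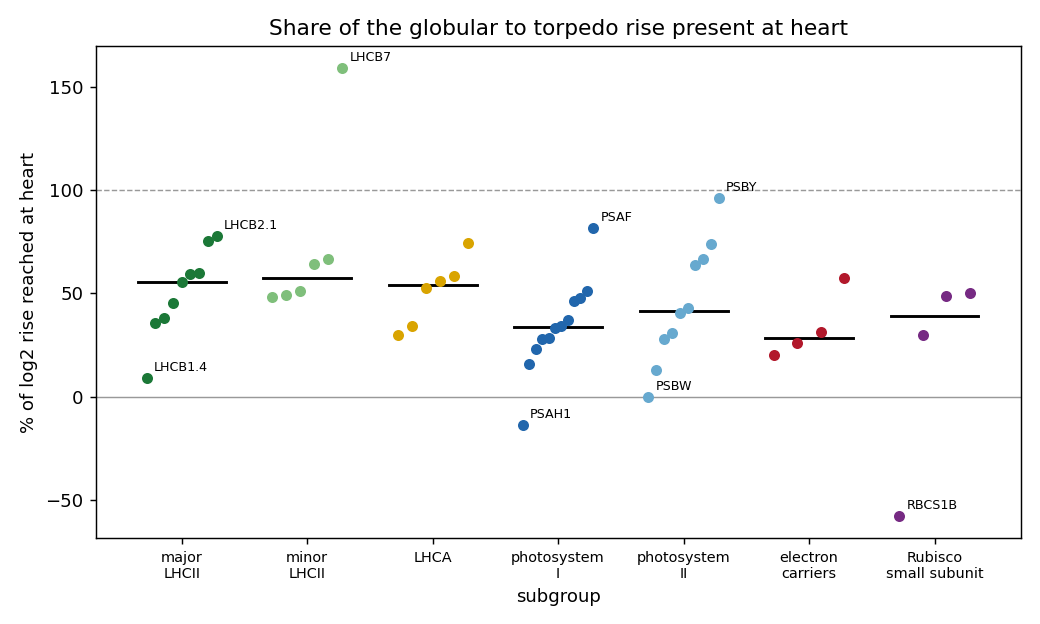
Each point is 1 gene, placed by subgroup on the x axis, and the y axis gives the percent of its globular to torpedo log2 rise that was present at heart, with black bars at subgroup medians. The 3 antenna subgroups have medians of 54.2% to 57.6%, and the other 4 subgroups of 28.6% to 41.6%, with overlapping ranges. The minor LHCII and Rubisco medians include LHCB7 and RBCS1B, genes for which such a share has little meaning.

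From torpedo to bent no gene rose and 6 fell, against 5.46% and 22% of all tested genes. The median log2 change was -1.07, against -0.54 over all tested genes. The genes that fell were LHCA6, RBCS3B, RBCS2B, LHCB4.2, FD2 and LHCB4.1, with LHCA6 showing the largest change (log2 change -3.70 ± 0.58 SE, adjusted p = 0.000396). No rise was found with edgeR or DESeq2, nor at an unadjusted p under 0.05 with limma. When the mature stage was left out 20 fell and none rose, against 23.8% and 5.59% of tested genes. The count was 3 without torpedo 1, 3 without torpedo 2, 11 without bent 1, 2 without bent 2, 20 without mature 1 and 21 without mature 2. At bent the maturation markers took 9.77% and 12.6% of the libraries, and their part in the lower values of other genes was not tested.

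From bent to mature 49 genes fell and 1 rose, against 40.1% and 18.2% of all tested genes. The median log2 change was -6.60, against -0.57 over all tested genes. The counts were 49 and 1 without either mature library, while the median was -4.99 without mature 1 and -8.38 without mature 2. LHCB7 was the gene that rose (log2 change 2.97 ± 0.54 SE, adjusted p = 0.000241), and RBCS2B, at 2 and 3 reads, was not called. Against the zygote, 33 genes were lower at mature and 6 higher, against 35.6% and 29.6% of all tested genes. The 6 were LHCB7, LHCA5, FD2, LHCB4.1, PETC and PSAD2.

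In mature 2 most genes of the set stood at a like fraction of their torpedo level. The median over the 51 genes was 1.31% of the torpedo mean, with quartiles at 1.11% and 1.84%. In mature 1 the median was 0.0487%, with quartiles at 0.0122% and 0.255%. Outside the set, 594 genes had a torpedo mean over 1000 and stood in mature 1 under 1% of it. In mature 2 these 594 genes had a median of 1.61% of the torpedo mean, with quartiles at 1.28% and 2.03%. The same limits were met by 38 of the 51 genes, with a median of 1.24% in mature 2 and quartiles at 1.09% and 1.41%. The part of RNA from another stage or source in that library was not tested. Of the 31 genes with over 3 reads in both mature libraries, 7 had values within 2 times of each other there, namely LHCB4.1, FD2, PETC, LHCB7, LHCA5, PSAD2 and PSBR.

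**Figure D4:**
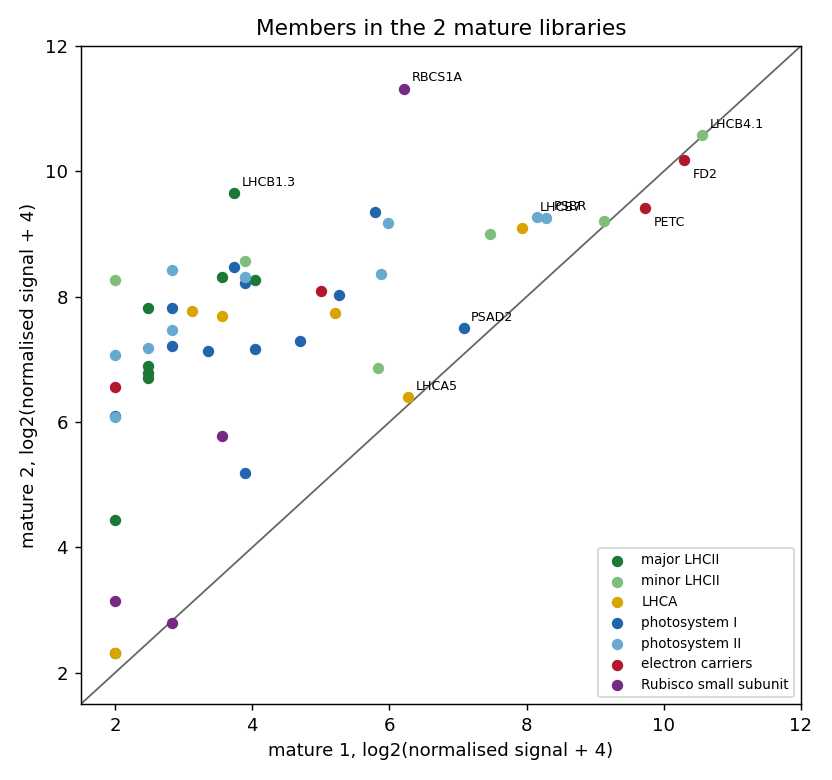
Each point is 1 of the 51 genes, with log2(normalised signal + 4) in mature 1 on the x axis and in mature 2 on the y axis, coloured by subgroup, and the line marks equal values. Points for 48 genes lie above the line, and LHCB4.1, FD2, PETC, LHCB7 and LHCA5 lie on or near it at 73.5 units or more in both libraries.

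Major LHCII is the trimeric antenna built from LHCB1, LHCB2 and LHCB3 proteins. In the following the 2 values of a stage are given in the order of the replicate numbers, and coordinates are those of the TAIR10.1 reference. LHCB1.3 (AT1G29930, chr1:10477885-10479114, plus strand), the gene with the highest mean of this subgroup, was at 527 and 664 at zygote, 1046 and 1135 at octant, 2418 and 1205 at globular, 9460.2 and 6401 at heart, 176393 and 77203 at torpedo, 61931 and 23182 at the bent stage, and 9.39 and 799 at mature. Both torpedo libraries lay above every other library, and mature 1, with 6 reads, lay below every other library. LHCB1.4 (AT2G34430, chr2:14524607-14525918, plus strand), the lowest of the subgroup, was at 19.4 and 25.1 at zygote, 39.5 and 36.03 at octant, 26.3 and 0 at globular, 6.04 and 20.02 at heart, 758 and 291 at torpedo, 162 and 147 at the bent stage, and 0 and 0.978 at mature. Its torpedo and bent libraries were above all others, and its heart and zygote libraries overlapped. LHCB1.5 (AT2G34420, chr2:14522524-14523568, minus strand), beside it on chromosome 2, was at 9875 and 9698 at zygote, 1789 and 1811 at octant, 849 and 702 at globular, 13043 and 17483 at heart, 44826 and 35273 at torpedo, 41181 and 16379.7 at the bent stage, and 12.5 and 304 at mature. Its zygote libraries lay above the octant and globular ones, and its torpedo and bent libraries overlapped. All of its 50-base words also lie in an overlapping gene (AT2G08665 or AT2G34410) or in LHCB1.4, so its reads cannot be assigned with certainty.

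The log2 ratio of LHCB1.4 to LHCB1.5 differed among stages (exact permutation test of the F ratio, adjusted p = 0.0286 over 13 pairs). It was -5.43 ± 0.10 at octant and -9.93 ± 0.59 at heart (SD, n = 2). With a pseudocount of 1 the adjusted p was 0.168. It was 0.0506 to 0.12 without any 1 of the 2 libraries of zygote, octant, heart, torpedo or bent, and 0.0252 without the mature stage. The 13 ratio tests used all 135135 ways of dividing 14 libraries into 7 pairs, were one-sided, and could not give a p below 7.4e-06. The 13 gene pairs were chosen with earlier results of these data known, and ratios of other pairs were not tested.

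LHCB2.1 (AT2G05100, chr2:1822990-1824480, minus strand) was at 415 and 644 at zygote, 147 and 169 at octant, 181 and 123 at globular, 2721 and 4331 at heart, 9387 and 7473 at torpedo, 6502 and 3301 at the bent stage, and 1.56 and 106 at mature. LHCB2.2 (AT2G05070, chr2:1799234-1800472, minus strand) was at 224 and 385 at zygote, 191 and 169 at octant, 62.5 and 81.4 at globular, 799 and 1971 at heart, 8219 and 8645 at torpedo, 3259.8 and 1639 at the bent stage, and 1.56 and 114 at mature. Both had every heart library above every earlier one, and at torpedo their levels overlapped. The log2 ratio of LHCB2.1 to LHCB2.2 differed among stages (adjusted p = 0.0152, exact permutation test), with 1.45 ± 0.45 at heart and -0.01 ± 0.28 at torpedo. These genes share 22.7% and 28.1% of their 50-base words with each other, so reads could be split between them. Sharing of 10.7% to 20.5% holds also for LHCB1.1, LHCB1.2, LHCB1.3, LHCB1.4 and LHCB1.5. LHCB1.2 had the largest globular to torpedo change of all 51 genes (log2 change 9.78 ± 1.14 SE, adjusted p = 9.28e-06).

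The minor antenna proteins LHCB4, LHCB5 and LHCB6 connect major LHCII to the photosystem II core. LHCB6 (AT1G15820, chr1:5446462-5447880, minus strand), the highest of the subgroup by mean, was at 10826 and 8425 at zygote, 4593 and 2232 at octant, 2514 and 2841 at globular, 14643 and 13113 at heart, 31605 and 31864 at torpedo, 26788 and 11488 at the bent stage, and 10.95 and 378 at mature. Its zygote libraries lay above octant and globular, and its bent libraries fell on either side of the heart ones. LHCB4.1 (AT5G01530, chr5:208866-210548, plus strand) was at 247 and 613 at zygote, 494 and 491 at octant, 875 and 591 at globular, 5005 and 4324 at heart, 34721 and 33585 at torpedo, 21547 and 9055 at the bent stage, and 1509.7 and 1529 at mature. The 2 mature libraries were nearly equal and lay above all zygote, octant and globular libraries. LHCB4.2 (AT3G08940, chr3:2717557-2718923, plus strand) was at 797 and 904 at zygote, 253 and 299.5 at octant, 303 and 224 at globular, 2965 and 2740.4 at heart, 11601 and 9849 at torpedo, 6642 and 1868 at the bent stage, and 174 and 509 at mature, and LHCB4.3 (AT2G40100, chr2:16745628-16747424, plus strand) at 49.5 and 100.3 at zygote, 316 and 234 at octant, 237 and 173 at globular, 797 and 849 at heart, 4359 and 2711 at torpedo, 3906 and 3069 at the bent stage, and 53.2 and 113 at mature. LHCB4.2 was higher at zygote than at octant and globular without overlap, the opposite order to LHCB4.3.

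The 3 genes encode forms of 1 protein, CP29, and their ratios differed among stages. LHCB4.1 over LHCB4.2 went from -1.11 ± 0.79 in log2 at zygote to 1.99 ± 0.41 at bent and 2.34 ± 1.07 at mature (adjusted p = 0.0127, exact permutation test). LHCB4.1 over LHCB4.3 was 0.85 ± 0.29 at octant, 3.31 ± 0.45 at torpedo and 4.22 ± 0.71 at mature (adjusted p = 0.00534, exact permutation test). LHCB4.1 and LHCB4.2 crossed over, since the sign of their ratio changed between zygote and octant.

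LHCB7 (AT1G76570, chr1:28728998-28730851, plus strand) encodes a light-harvesting protein that is rare in leaves, and it followed a course of its own. It was at 17.5 and 10.3 at zygote, 75.1 and 63.1 at octant, 9.87 and 10.2 at globular, 122 and 93.1 at heart, 88.6 and 24.7 at torpedo, 50.6 and 94.5 at the bent stage, and 559 and 584 at mature. The 2 mature libraries lay above all 12 others, and they held 357 and 597 reads of the gene. Its changes were 2.05 (zygote to octant), -2.38 (octant to globular), 2.98 (globular to heart) and 2.97 (bent to mature) on the log2 scale, each past the adjusted threshold. The gene had 18 and 7 reads at zygote and 3 and 8 at globular, so the first 3 changes rest on few reads. At 23.5 reads per kilobase and per 1000000 reads in mature embryos its level stayed far under that of RBCS1A at torpedo.

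The 250 bases before the annotated starts of LHCB4.1 and LHCB7, LHCB genes for which both mature libraries lay above every zygote, octant and globular library, are shown for comparison. They are from the TAIR10.1 reference, 5' to 3' on the coding strand, at chr5:208616-208865 (plus strand) and chr1:28728748-28728997 (plus strand). Capitals mark CACGTG (the G-box) and CCAATC, found on either strand.
LHCB4.1: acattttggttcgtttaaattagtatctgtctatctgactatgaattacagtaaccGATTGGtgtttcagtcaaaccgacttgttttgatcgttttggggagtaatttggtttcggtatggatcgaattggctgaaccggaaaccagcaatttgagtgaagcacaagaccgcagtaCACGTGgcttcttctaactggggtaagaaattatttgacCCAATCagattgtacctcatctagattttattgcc
LHCB7: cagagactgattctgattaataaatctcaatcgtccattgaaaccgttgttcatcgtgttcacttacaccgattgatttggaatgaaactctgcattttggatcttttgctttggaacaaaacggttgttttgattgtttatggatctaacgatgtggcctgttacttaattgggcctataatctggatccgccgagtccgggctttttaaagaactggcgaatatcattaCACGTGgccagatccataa
LHCB4.1 holds 1 G-box and 2 CCAATC matches in this window and LHCB7 holds 1 G-box.

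LHCA proteins form the antenna belt of photosystem I, and LHCA5 and LHCA6 are known to link photosystem I to the NDH complex. LHCA4 (AT3G47470, chr3:17493343-17495033, minus strand), the highest by mean, was at 407 and 588 at zygote, 1904 and 2164 at octant, 1148 and 850.1 at globular, 6521 and 7272 at heart, 29348 and 25223 at torpedo, 21069 and 10120.5 at the bent stage, and 239 and 542 at mature. Its octant libraries lay above both zygote and globular. LHCA6 (AT1G19150, chr1:6612630-6613972, plus strand), the lowest by mean, was at 158 and 252 at zygote, 63.5 and 69.8 at octant, 46.1 and 59.8 at globular, 171 and 127 at heart, 394 and 268 at torpedo, 48.3 and 8.29 at the bent stage, and 0 and 0.978 at mature. Both zygote libraries lay above octant, globular and bent, and mature was at 0 and 1 read. LHCA5 (AT1G45474, chr1:17179250-17180806, plus strand) was at 4.85 and 2.95 at zygote, 35.6 and 40.5 at octant, 6.58 and 17.8 at globular, 46.8 and 55.05 at heart, 705 and 593 at torpedo, 609 and 519 at the bent stage, and 73.5 and 80.2 at mature, with 5 and 2 reads at zygote. Its torpedo and bent libraries overlapped, and both mature libraries lay above all earlier ones up to heart. LHCA6 fell from torpedo while LHCA5 had a log2 change of -0.20 (SE 0.45, adjusted p = 0.794), and the difference itself was not tested. LHCA1, LHCA2 and LHCA3 lay between 392 and 2902 before heart and between 14031 and 19916 at torpedo.

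Photosystem I subunits bind ferredoxin (PSAD, PSAE), plastocyanin (PSAF, PSAN) and antenna proteins (PSAG, PSAK, PSAH, PSAL, PSAO). PSAF (AT1G31330, chr1:11214676-11216141, minus strand), the highest by mean, was at 7072 and 7038 at zygote, 3088 and 2207 at octant, 3442 and 2830.4 at globular, 34317 and 22394 at heart, 42809 and 48104 at torpedo, 30709 and 11102 at the bent stage, and 51.6 and 647 at mature. Its heart libraries lay below torpedo and above zygote, octant and globular, without overlap. PSAD1 (AT4G02770, chr4:1229031-1230164, minus strand) was at 447 and 403 at zygote, 237 and 405 at octant, 553 and 566 at globular, 2487 and 1363 at heart, 18118 and 22607 at torpedo, 11398 and 5013 at the bent stage, and 10.95 and 294 at mature. PSAD2 (AT1G03130, chr1:753307-754262, minus strand) was at 48.5 and 75.2 at zygote, 82.8 and 131 at octant, 141 and 101 at globular, 673 and 380.3 at heart, 5694 and 10484 at torpedo, 8642 and 2819 at the bent stage, and 131 and 177 at mature. PSAD2 had 84 and 181 reads at mature while PSAD1 had 7 and 301. Their log2 ratio differed among stages (adjusted p = 0.0208, exact permutation test), from 2.73 ± 0.53 at zygote to 0.61 ± 0.30 at bent. At mature the ratio was -1.23 ± 2.76, the lowest stage mean. Without the mature stage the adjusted p was 0.00554 over 10395 divisions, and without any 1 library of the other 6 stages it was 0.0787 to 0.118.

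PSAE1 (AT4G28750, chr4:14202758-14204061, minus strand) was at 116 and 129.8 at zygote, 168 and 122 at octant, 220.5 and 96.7 at globular, 459 and 560.5 at heart, 11316 and 10292 at torpedo, 5627 and 1967 at the bent stage, and 12.5 and 139.9 at mature. PSAE2 (AT2G20260, chr2:8736734-8737767, plus strand), the lowest photosystem I gene by mean, was at 298 and 349 at zygote, 66.5 and 45.04 at octant, 230.3 and 141 at globular, 518 and 608 at heart, 4038 and 3481 at torpedo, 3051 and 913 at the bent stage, and 10.95 and 32.3 at mature. PSAE2 exceeded PSAE1 at zygote, globular and heart, and PSAE1 exceeded PSAE2 at octant, torpedo and bent, in both libraries of each. Their log2 ratio was -1.36 ± 0.05 at zygote, 1.32 ± 0.05 at octant, -0.30 ± 0.33 at globular and 1.52 ± 0.05 at torpedo (adjusted p = 0.0152, exact permutation test). PSAH1 and PSAH2 had heart values of 233 and 233 and 2553 and 1305, and their ratio did not pass (adjusted p = 0.0534, exact permutation test). Without globular 2, bent 1 or bent 2 it passed at 0.0438, 0.0342 and 0.0307. PSAE1, PSAG and PSAH1 share 29.1%, 58.8% and 49.2% of their 50-base words with an overlapping neighbour, and reads there cannot be assigned without strand.

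In photosystem II, PSBO, PSBP and PSBQ shield the oxygen-evolving manganese cluster and PSBR helps to hold them. PSBO1 (AT5G66570, chr5:26568572-26570461, plus strand), the highest by mean, was at 8628 and 10504 at zygote, 3192 and 2374 at octant, 2366 and 2513 at globular, 15827 and 21456 at heart, 48985 and 51603 at torpedo, 34934 and 11357 at the bent stage, and 59.5 and 576 at mature. PSBO2 (AT3G50820, chr3:18890874-18892508, minus strand), the lowest, was at 672 and 435 at zygote, 80.5 and 115 at octant, 52.6 and 31.8 at globular, 2523 and 1356 at heart, 8833 and 5550.1 at torpedo, 4598 and 872 at the bent stage, and 0 and 63.6 at mature. The zygote libraries of both lay above octant and globular. Their log2 ratio was 5.76 ± 0.53 at globular and 2.84 ± 0.53 at torpedo (adjusted p = 0.0349, exact permutation test). With a pseudocount of 1 it was 0.168, and it was 0.0506 to 0.125 without any 1 of zygote 2 and the 2 libraries of octant, globular, torpedo and bent.

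PSBQ1 (AT4G21280, chr4:11334352-11335815, plus strand) was at 17.5 and 30.97 at zygote, 139 and 198 at octant, 767 and 313 at globular, 767 and 689.6 at heart, 10178 and 9135 at torpedo, 2941 and 1298 at the bent stage, and 0 and 131 at mature. PSBQ2 (AT4G05180, chr4:2671523-2673243, minus strand) was at 259.9 and 232 at zygote, 265 and 223 at octant, 188 and 109 at globular, 1153 and 1151 at heart, 24209 and 23581 at torpedo, 22642 and 11589 at the bent stage, and 3.13 and 338 at mature. PSBQ1 lay above PSBQ2 in both globular libraries and below it in every other library. Their log2 ratio went from -3.19 ± 0.61 at zygote to 1.75 ± 0.37 at globular and -3.05 ± 0.15 at bent (adjusted p = 0.00534, exact permutation test). It stayed past the threshold without each single library, at 0.00191 to 0.0173. PSBR (AT1G79040, chr1:29735952-29737009, plus strand), the gene with its highest mean at bent, was at 8941 and 8821 at zygote, 2277 and 2507 at octant, 4037 and 4131 at globular, 16260.2 and 14068 at heart, 38781 and 25969 at torpedo, 31130.5 and 36931 at the bent stage, and 308 and 609 at mature. Its bent and torpedo libraries overlapped. PSBS, which triggers heat dissipation of excess light, was at 16685 and 19039 at torpedo and 19045 and 15660.5 at bent, again overlapping. PSBW, PSBX and PSBY are small membrane subunits. PSBW varied least among them before torpedo, between 3455 and 7663, and PSBY most, between 92.9 and 18789.

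The PSBQ pair differs in its ratio between stages, so the 250 bases before both starts are shown, from TAIR10.1 at chr4:11334102-11334351 (PSBQ1, plus strand) and chr4:2673244-2673493 (PSBQ2, minus strand). Capitals mark CACGTG, the I-box (GATAAG) and also the CCAATC element, on either strand.
PSBQ1: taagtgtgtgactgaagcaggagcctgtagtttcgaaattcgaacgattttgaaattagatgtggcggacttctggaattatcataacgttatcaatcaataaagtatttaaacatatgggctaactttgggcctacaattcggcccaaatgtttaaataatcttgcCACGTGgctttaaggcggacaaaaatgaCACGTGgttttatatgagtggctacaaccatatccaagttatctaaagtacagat
PSBQ2: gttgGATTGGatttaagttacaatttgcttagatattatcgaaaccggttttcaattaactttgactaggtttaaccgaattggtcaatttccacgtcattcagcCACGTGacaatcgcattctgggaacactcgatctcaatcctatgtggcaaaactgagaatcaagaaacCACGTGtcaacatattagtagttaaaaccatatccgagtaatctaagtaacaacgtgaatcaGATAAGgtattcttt
Both windows hold 2 G-boxes, and PSBQ2 also holds 1 I-box and 1 CCAATC match.

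Of the electron carriers, PETC is the Rieske protein of cytochrome b6f, PETE1 and PETE2 are plastocyanins and FD2 is the main leaf ferredoxin. PETE2 (AT1G20340, chr1:7042046-7043392, minus strand), the highest by mean, was at 4953 and 6714 at zygote, 1275 and 1079 at octant, 7532 and 6611 at globular, 6189 and 12896 at heart, 25832 and 20418 at torpedo, 15349.5 and 6680.2 at the bent stage, and 28.2 and 270 at mature. Its octant libraries lay below zygote and globular, and its heart and globular libraries overlapped. PETE1 (AT1G76100, chr1:28553883-28554930, minus strand), the lowest by mean, was at 851 and 976 at zygote, 63.5 and 110.4 at octant, 306 and 354 at globular, 690 and 837 at heart, 10437 and 6170.1 at torpedo, 4514 and 1357 at the bent stage, and 0 and 90.001 at mature. PETE1 too had its octant libraries below zygote and globular. The log2 ratio of PETE1 to PETE2 was -4.41 ± 0.28 at globular and -1.52 ± 0.30 at torpedo (adjusted p = 0.0203, exact permutation test). With a pseudocount of 1 it was 0.168, without globular 1 it was 0.0602 and without torpedo 1 it was 0.0592. FD2 was at 139.6 and 202 at zygote, 807 and 626 at octant, 934 and 972 at globular, 2820.2 and 2891 at heart, 33757 and 30902 at torpedo, 22121 and 7842 at the bent stage, and 1252 and 1155 at mature. PETC was at 325 and 234 at zygote, 8485 and 9437 at torpedo and 840.1 and 677 at mature. Both mature libraries of FD2 and of PETC lay above both zygote libraries.

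Rubisco fixes carbon dioxide with a large subunit from the plastid genome and small subunits from the nuclear RBCS family. RBCS1A (AT1G67090, chr1:25048158-25049667, minus strand) was at 841 and 972 at zygote, 2210 and 1718 at octant, 2948 and 3491 at globular, 26079.8 and 22529 at heart, 249311 and 164556 at torpedo, 124418 and 120322 at the bent stage, and 70.4 and 2553 at mature. Each stage from zygote to torpedo lay above the one before it, without overlap. RBCS1B (AT5G38430, chr5:15383167-15385320, minus strand) was at 128 and 128 at zygote, 471 and 295 at octant, 32.9 and 16.5 at globular, 4.53 and 9.01 at heart, 125 and 162 at torpedo, 91.02 and 36.5 at the bent stage, and 0 and 4.89 at mature. RBCS2B (AT5G38420, chr5:15380907-15382071, minus strand) was at 53.3 and 30.97 at zygote, 395 and 167 at octant, 13.2 and 11.5 at globular, 31.7 and 25.02 at heart, 42.6 and 81.2 at torpedo, 11.2 and 4.97 at the bent stage, and 3.13 and 2.93 at mature. Both of the latter had their octant libraries above those of every other stage. RBCS3B (AT5G38410, chr5:15376988-15378642, minus strand) was at 187 and 140.1 at zygote, 136 and 304 at octant, 36.2 and 73.8 at globular, 246 and 144 at heart, 3418 and 3715 at torpedo, 912 and 156 at the bent stage, and 7.82 and 50.9 at mature, with both torpedo libraries above all others.

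RBCS1A lies on chromosome 1, and the other 3 lie within chr5:15376988-15385320. RBCS1B, RBCS2B and RBCS3B share 13.98%, 21.4% and 18.3% of their 50-base words with other RBCS genes. At octant the 3 genes of chromosome 5 were 471 and 295, 395 and 167 and 136 and 304 beside RBCS1A at 2210 and 1718. The log2 ratio of RBCS1A to RBCS1B was 2.78 ± 0.14 at zygote, 2.37 ± 0.22 at octant, 6.87 ± 0.77 at globular and 11.17 ± 0.58 at heart (adjusted p = 0.00681, exact permutation test). The ratio to RBCS2B was 2.90 ± 0.61 at octant and 13.35 ± 0.51 at bent (adjusted p = 0.00681, exact permutation test). The ratio to RBCS3B was 2.45 ± 0.43 at zygote and 8.32 ± 1.75 at bent (adjusted p = 0.0152, exact permutation test). Reads of RBCS1B were 609 and 131 at octant and 3 and 9 at heart. The seed coat markers were also highest at octant, and their part in the octant values of RBCS1B and RBCS2B was not tested.

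**Figure D5:**
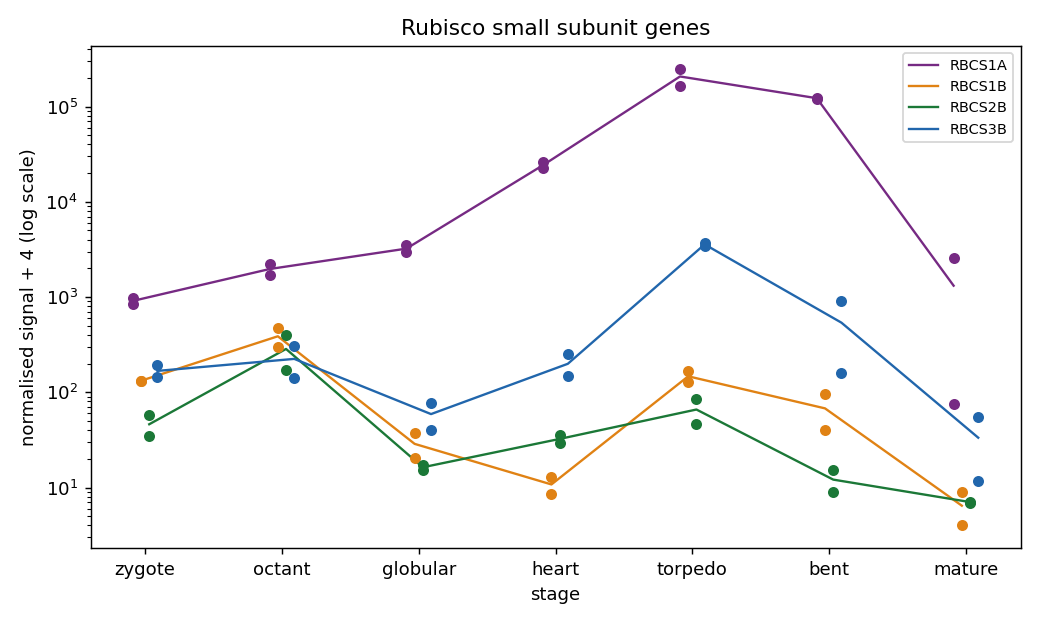
The x axis gives the stage and the y axis, on a log scale, the normalised signal + 4 of the 4 Rubisco small subunit genes, with 1 point per library and lines through stage means. RBCS1A and RBCS3B peak at torpedo, and RBCS1B and RBCS2B at octant.

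The 250 bases before the RBCS1A, RBCS1B and RBCS2B starts are shown because RBCS1A was highest at torpedo and the other pair at octant. They are from TAIR10.1 at chr1:25049668-25049917, chr5:15385321-15385570 and chr5:15382072-15382321, all minus strand. Capitals mark the G-box and I-box letters given above and, for the RY element, CATGCA, on either strand.
RBCS1A: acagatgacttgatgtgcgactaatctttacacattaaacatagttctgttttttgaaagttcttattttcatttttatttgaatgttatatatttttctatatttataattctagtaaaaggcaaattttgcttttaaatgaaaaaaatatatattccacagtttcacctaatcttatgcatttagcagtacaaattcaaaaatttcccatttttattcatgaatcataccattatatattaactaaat
RBCS1B: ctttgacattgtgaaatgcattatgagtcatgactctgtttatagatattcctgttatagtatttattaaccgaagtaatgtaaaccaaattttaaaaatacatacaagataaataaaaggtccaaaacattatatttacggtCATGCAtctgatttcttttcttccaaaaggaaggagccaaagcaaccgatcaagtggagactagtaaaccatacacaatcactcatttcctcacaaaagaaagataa
RBCS2B: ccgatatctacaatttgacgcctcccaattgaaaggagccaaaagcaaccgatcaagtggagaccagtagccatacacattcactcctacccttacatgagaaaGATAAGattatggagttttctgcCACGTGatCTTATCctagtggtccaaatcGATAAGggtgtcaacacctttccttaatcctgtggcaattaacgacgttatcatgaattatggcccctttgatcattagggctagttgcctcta
RBCS2B holds 1 G-box and 3 I-boxes, RBCS1B holds 1 RY element, and the RBCS1A window holds none of the 4 motifs searched. Each window ends at the outermost annotated start of its gene. The longest annotated transcripts are 1268 bases for RBCS1A, 1894 for RBCS1B and 935 for RBCS2B. Motifs past the outermost start, before a start further in, were not searched, so the windows do not show that a promoter lacks a motif.

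Over the same windows of all 51 genes, CACGTG was found in 10, or 19.6%, against 6.49% of 27443 protein-coding genes of the reference. GATAAG was found in 12, or 23.5%, against 12.3%. CCAATC was found in 13, or 25.5%, against 10.2%, and CATGCA in 6, or 11.8%, against 8.43%. CCAATC matches lay before 5 of 9 major LHCII genes and 3 of 6 LHCA genes, and before none of the 12 photosystem I subunit genes. G-boxes lay before 3 of 6 minor LHCII genes. These are matches of letters on both strands, and no test was made of them.

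Other genes of photosynthesis were counted in the same comparisons. All 23 listed chlorophyll synthesis genes were in the table, and 22 were tested. Of 22 chlorophyll synthesis genes 19 rose from globular to heart, all 22 rose from globular to torpedo, 13 fell from torpedo to bent and 17 fell from bent to mature. Among them CAO, which makes chlorophyll b for the antenna, was at 16.5 and 48.7 at zygote, 45.7 and 38.3 at octant, 26.3 and 16.5 at globular, 492 and 681 at heart, 2089 and 1721 at torpedo, 1852 and 963 at the bent stage, and 25.03 and 66.5 at mature. Its heart, torpedo and bent libraries lay above all others. Of 15 listed Calvin cycle genes 11 were in the table. Of these 5 rose from globular to heart, 9 from globular to torpedo, and 9 fell from bent to mature. PRK, phosphoribulokinase, went from 62.5 and 71.3 at globular to 5700.4 and 5292 at torpedo (log2 change 6.28 ± 0.88 SE, adjusted p = 4.86e-05). CP12-1, a regulator of that enzyme, was at 69328 and 83562 at zygote, 29006 and 19861 at octant, 17683 and 37696 at globular, 24884 and 26166 at heart, 27436 and 36325 at torpedo, 43075 and 34299 at the bent stage, and 30256 and 33446 at mature. Its zygote libraries were the highest, and no library was under 17683.

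Of 16 other listed thylakoid and electron transport genes 14 were in the table. Of these 6 rose from globular to heart and 13 from globular to torpedo, and 12 fell and 1 rose from bent to mature. FD3, a ferredoxin of non-green plastids, was the one that rose, from 1935 and 1654 at bent to 13778 and 13234 at mature. Of 14 listed plastid regulators 8 were in the table, and of these 6 rose and 1, HY5, fell from globular to torpedo. GLK1, an activator of antenna and chlorophyll genes, was at 0 and 1.47 at zygote, 0 and 0 at octant, 0 and 11.5 at globular, 84.5 and 80.1 at heart, 1817 and 989.5 at torpedo, 259.6 and 54.7 at the bent stage, and 4.69 and 8.80 at mature. No read was found at octant, which allows up to 2.32 and 6.76 units in the 2 libraries, and the torpedo libraries were the highest. Of 6 genes of early light-induced and related proteins 2 rose and 1 fell from globular to torpedo. The background shares of all tested genes given above apply to these counts. The gene for Rubisco activase, RCA, was not analysed here.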

How the data were processed

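Whole Col-0 embryos had been collected at 7 stages, 2 libraries from separate biological replicates per stage. Per the labels' protocols, RNA was amplified as antisense RNA before non-stranded library preparation. Per the submitters' processing notes, CASAVA, Trimmomatic, FastQC, STAR, HTSeq, DESeq2 and build TAIR10 were used. The scaling step itself is not given in those notes. The deposited signal values sum to 20000000 per library, and 100% of them were whole multiples of 1 read within 0.001 reads. The table has 25517 entries, 103 of them without an identifier; these held 9.15% to 26.3% of the signal, stayed in the deposited scaling and were not tested. Of 25414 named genes, 24932 matched the RefSeq annotation of TAIR10.1.

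Genes at 10 or more in at least 2 libraries (18744, all 51 of the set included) were fitted with limma 3.58.1 (R 4.3.3) on log2(value + 4), with stage as the single term over 14 libraries and Benjamini-Hochberg adjustment at 0.05. Ratios of 13 gene pairs were tested by exact permutation, adjusted over 13. Scripts were tested on simulated data. edgeR 4.0.16 and DESeq2 1.42.0 on the recovered reads, other pseudocounts, filters and scalings, a replicate block and each library left out were alternatives. edgeR called 17748 genes as differing among stages. Leaving out the mature stage was chosen after seeing the data. The set, the other gene lists and the pairs were chosen with earlier results of these data known. Genes given with every value include the highest and lowest of each subgroup, those with another peak stage and the pairs that passed. Genes with the largest called changes are named per comparison, some of them without every value. The 14 genes high at zygote and the remaining examples were chosen after their values were seen.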

Additional observations from a re-analysis of the deposited data

How the results depend on the processing

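Of 231 called gene changes none changed sign under any alternative run. Calls lost numbered 18 with a pseudocount of 1, 3 with 16, 20 without a filter, 0 with a filter at 50, 20 with upper-quartile scaling, 32 after median centring, 26 with edgeR, 30 with DESeq2, 1 to 31 without 1 library, and 0 of 142 without the mature stage, an alternative chosen after seeing the data. The count of genes that rose from zygote to octant, 8, was 2 after median centring, 3 with edgeR, 1 with DESeq2 and 13 without the mature stage, and 6 to 13 without 1 library. The count that fell, 10, was 17 with upper-quartile scaling, 20 after centring, 20 with edgeR, 21 with DESeq2 and 19 without the mature stage, and 5 to 19 without 1 library. The share of all tested genes that rose was 25.4% with edgeR and 20.3% with DESeq2, and the share that fell 23.4% and 26.6%, so the background moved as well. From octant to globular the 3 rises became 5 with a pseudocount of 16, 6 with upper-quartile scaling, 12 after centring, 8 with edgeR, 10 with DESeq2 and 8 without the mature stage, and 0 to 8 without 1 library. Of all tested genes 11.7% rose there with edgeR and 13.6% with DESeq2. The 6 falls became 10 without the mature stage, and 4 to 10 without 1 library. From globular to heart the 26 rises became 40 without the mature stage and 16 to 40 without 1 library. The 0 falls became 1 with upper-quartile scaling, centring, edgeR and DESeq2, and 0 to 1 without 1 library. From heart to torpedo the rises were 15 to 45 and the falls 0 to 1 without 1 library. From torpedo to bent the 6 falls became 3 with upper-quartile scaling, centring, edgeR and DESeq2, 20 without the mature stage, and 2 to 21 without 1 library. The share of all tested genes that fell there was 10.5%, 9.28%, 8.35% and 8.94% under the first 4 of these, against 22% in the reported fit. The cause of these moves was not tested.

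Median centring moved the all-gene median of zygote to octant from 0.92 to -0.22, and that of globular to torpedo from 0.79 to -0.48. With a pseudocount of 1 the adjusted p was 0.168 for each of the PSBO, PETE and LHCB1.4 to LHCB1.5 ratios. Without 1 library the adjusted p (exact permutation test) ran from 0.000689 to 0.118 for PSAD, 0.0307 to 0.189 for PSAH, 0.029 to 0.125 for PSBO, 0.00712 to 0.0602 for PETE and 0.0028 to 0.12 for LHCB1.4 to LHCB1.5. The other 8 ratios passed in every such fit. The gaps between replicate 1 and replicate 2 had correlations of -0.111 to 0.299 between stages, over 0.1 in 3 of 21 pairs of stages. These 3 were globular with torpedo (0.299), globular with bent (0.162) and torpedo with bent (0.103). The labels do not pair the libraries, and a batch shared by those stages was not tested. With a replicate block 2 of the 231 calls were lost, and the counts of genes that rose from zygote to octant and from globular to heart were 8 and 27.

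Depth limits the lowest values. In mature 1, 20 genes of the set had 3 reads or fewer, and folds there depend on the pseudocount. With 2 libraries per stage, 1 library can decide a call.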
